A study of Mus musculus with 1298 samples.

Results

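The genes described here are the axon guidance receptors *Robo1*, *Robo2*, *Robo3*, *Robo4* and *Dcc* and the secreted ligands *Slit1*, *Slit2*, *Slit3* and *Ntn1*. They were chosen by name, and all 9 had a row among the 17634 genes of the 10× count tables and the 22894 genes of the Smart-seq2 (ss2) table. The cells came from mouse embryos carrying Pax7CreER and R26R-stop-EYFP, in which tamoxifen (75 µg/g) given at E9.5 switched on a permanent YFP label in cells expressing *Pax7*, and YFP+ cells were sorted from trunks without limbs, viscera and head, on E12.5, on E14.5 or on E16.5. Every library carried the same alleles and the same tamoxifen dose, and libraries differed in embryonic day, platform and sequencing batch. *Pax7* is expressed in the dorsal neural tube as well as in the somitic mesoderm, and each library pooled several embryos.

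Slit proteins are secreted guidance cues that repel growing axons and migrating cells through Robo receptors. Netrin-1, the product of *Ntn1*, is secreted by the floor plate and by progenitors of the ventricular zone, and through its receptor Dcc it guides commissural axons towards the ventral midline of the spinal cord. Robo3 is a divergent Robo receptor made by commissural neurons before their axons cross that midline, Robo1 and Robo2 act in the repulsion of axons from it, and Robo4 is best known from endothelial cells. Outside the nervous system Slit and Robo genes are also expressed in somites, limb mesenchyme and developing muscle.

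In the annotation of GRCm38, all 9 are protein-coding genes. *Robo1* (chr16:72308306-73046095, plus strand) and *Robo2* (chr16:73891839-74411825, minus strand) lie on the same chromosome, as do *Slit3* (chr11:35121224-35708507, plus strand) and *Ntn1* (chr11:68209364-68400823, minus strand). *Robo3* (chr9:37415669-37433246, minus strand) and *Robo4* (chr9:37401897-37415115, plus strand) are neighbours that end towards each other, with 553 bases between their annotated ends. *Slit1* occupies chr19:41600257-41743665 on the minus strand, *Slit2* chr5:47983138-48307733 on the plus strand and *Dcc* chr18:71253634-72351069 on the minus strand.

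Sequences from just upstream of annotated start sites are shown for *Robo3*, whose level differed most between the cell classes below, and for *Robo1* and *Slit2*, whose levels were each other's closest match across the class sums. They were taken 5′ to 3′ on the gene's strand from the RefSeq-based promoter table of GRCm38.p6, without annotated exon bases, at chr9:37433247-37433425 (minus strand), chr16:72662899-72663148 (plus strand) and chr5:47982905-47983137 (plus strand). The *Robo1* window belongs to a start site inside the gene as annotated above. Capitals mark matches, on either strand, to the E-box CANNTG, the core bound by basic helix-loop-helix factors, and to TAATTA, a homeodomain core, searched without regard to overlap between them.

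Robo3: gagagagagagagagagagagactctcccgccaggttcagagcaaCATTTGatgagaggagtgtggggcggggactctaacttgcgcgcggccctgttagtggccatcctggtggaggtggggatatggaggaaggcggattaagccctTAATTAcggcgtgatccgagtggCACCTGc
Robo1: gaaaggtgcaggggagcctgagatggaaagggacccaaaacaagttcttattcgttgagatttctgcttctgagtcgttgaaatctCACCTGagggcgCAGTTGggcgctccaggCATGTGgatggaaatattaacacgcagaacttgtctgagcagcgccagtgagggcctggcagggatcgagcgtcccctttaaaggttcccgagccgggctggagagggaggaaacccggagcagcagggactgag
Slit2: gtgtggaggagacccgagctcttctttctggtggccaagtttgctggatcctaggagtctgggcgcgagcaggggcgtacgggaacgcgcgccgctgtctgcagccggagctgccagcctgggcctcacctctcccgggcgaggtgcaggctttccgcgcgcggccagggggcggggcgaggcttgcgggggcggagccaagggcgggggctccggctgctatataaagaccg

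The *Robo3* window held 1 TAATTA and 2 CANNTG matches, the *Robo1* window 3 CANNTG matches and the *Slit2* window neither motif. TAATTA, which was chosen after the *Robo3* sequence had been seen, occurred in 5.29% of the 32851 promoter windows of the same table (1738 windows, 250 bases before to 50 bases after a start) and CANNTG in 72.3% (23756 windows), so the shared E-box core is common and a match describes letters only. *Slit1* and *Ntn1* had no entry in the table, and *Dcc* is not shown.

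The single-cell data comprised 3 10× libraries and 3 sets of ss2 plates, together 6 pools, each 1 platform on 1 day and counted as 1 sample. Of 3916 deposited cells, 3852 were kept, with medians of 2185 (E12.5), 5930 (E14.5) and 1607.5 (E16.5) UMIs per cell on 10× and, on the same days, 393416, 769833 and 829590 counts on ss2. The ss2 days were sequenced in separate batches, so day and batch cannot be told apart on that platform, and 3 cell barcodes occurred in more than 1 10× library. Clustering without the guidance genes gave 929 neural cells (neuron-like 16.7% and neural progenitor-like 7.4% of the kept cells), 934 muscle cells (early myogenic EM-like 18% and late myogenic LM-like 6.23%) and 1931 mesenchymal cells, the last made up of early progenitor EP-like (10.5%), late progenitor LP-like (19.7%), dermal fibroblast DF-like (15.4%) and brown adipocyte BA-like cells (4.52%), with 58 pericyte PE-like cells set aside. Clusters were named from marker lists, so the marker levels given here describe the classes and do not check them independently. The summed neuron markers reached 4973 and 6343 CPM (the count scaled to a class sum of 1e6) in neural cells of the E12.5 and E14.5 10× libraries. They reached 116.3 to 155.1 CPM in mesenchymal and 59.6 to 205.2 CPM in muscle cells. Of the endothelial markers, 5 of 6 (*Cdh5*, *Kdr*, *Cldn5*, *Emcn* and *Tie1*) had no UMI in neural or muscle cells. Neural crest glia markers summed to 19.8 CPM in neural cells at E12.5 and to 0 at E14.5 on 10×. Of the floor plate markers *Shh*, *Foxa2*, *Foxj1* and *Spon1*, *Foxa2* had no UMI in the neural 10× cells, and the others are not given here. A single gene does not show whether floor plate cells were present. Where 3 values follow each other for 1 platform, they run from E12.5 through E14.5 to E16.5. Neural cells numbered 9 on 10× and 12 on ss2 at E16.5 and gave no class sum there, since 20 cells were required.

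Classes were compared over pools with edgeR's quasi-likelihood test on the counts of each class in each pool, summed over its cells, with the pool as a block, and p-values were adjusted over all genes tested. Against mesenchymal cells, neural cells had higher levels of *Robo3*, *Robo4*, *Slit1* and *Dcc*, lower levels of *Slit3*, and no call for *Robo1*, *Robo2*, *Slit2* and *Ntn1*, that is 5 of 9 genes beside 30.5% of all 14743 genes tested (12.2% higher and 18.3% lower). Muscle cells had lower levels than mesenchymal cells of *Robo1*, *Robo2*, *Slit3*, *Dcc* and *Ntn1*, with none of the 9 higher, beside 24.1% of all genes (9.1% higher and 15% lower). Against muscle cells, neural cells had higher levels of *Robo1*, *Robo2*, *Robo3*, *Robo4*, *Slit1* and *Dcc*, beside 35.5% of all genes (16.6% higher and 18.9% lower). These 3 comparisons share class sums and are not independent of each other, and 9 genes are too few to read a share against these backgrounds closely. *Robo4* had no count in muscle or mesenchymal cells and entered the tests through a few neural ss2 cells alone. Its direction was thus fixed in advance, and its calls add no support. The share of all calls that were higher in neural than in mesenchymal cells moved from 40.1% to 50.2% with the DESeq2-type scaling of edgeR, which shifted the median of all genes by 0.182 on the log2 scale.

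**Figure D1:**
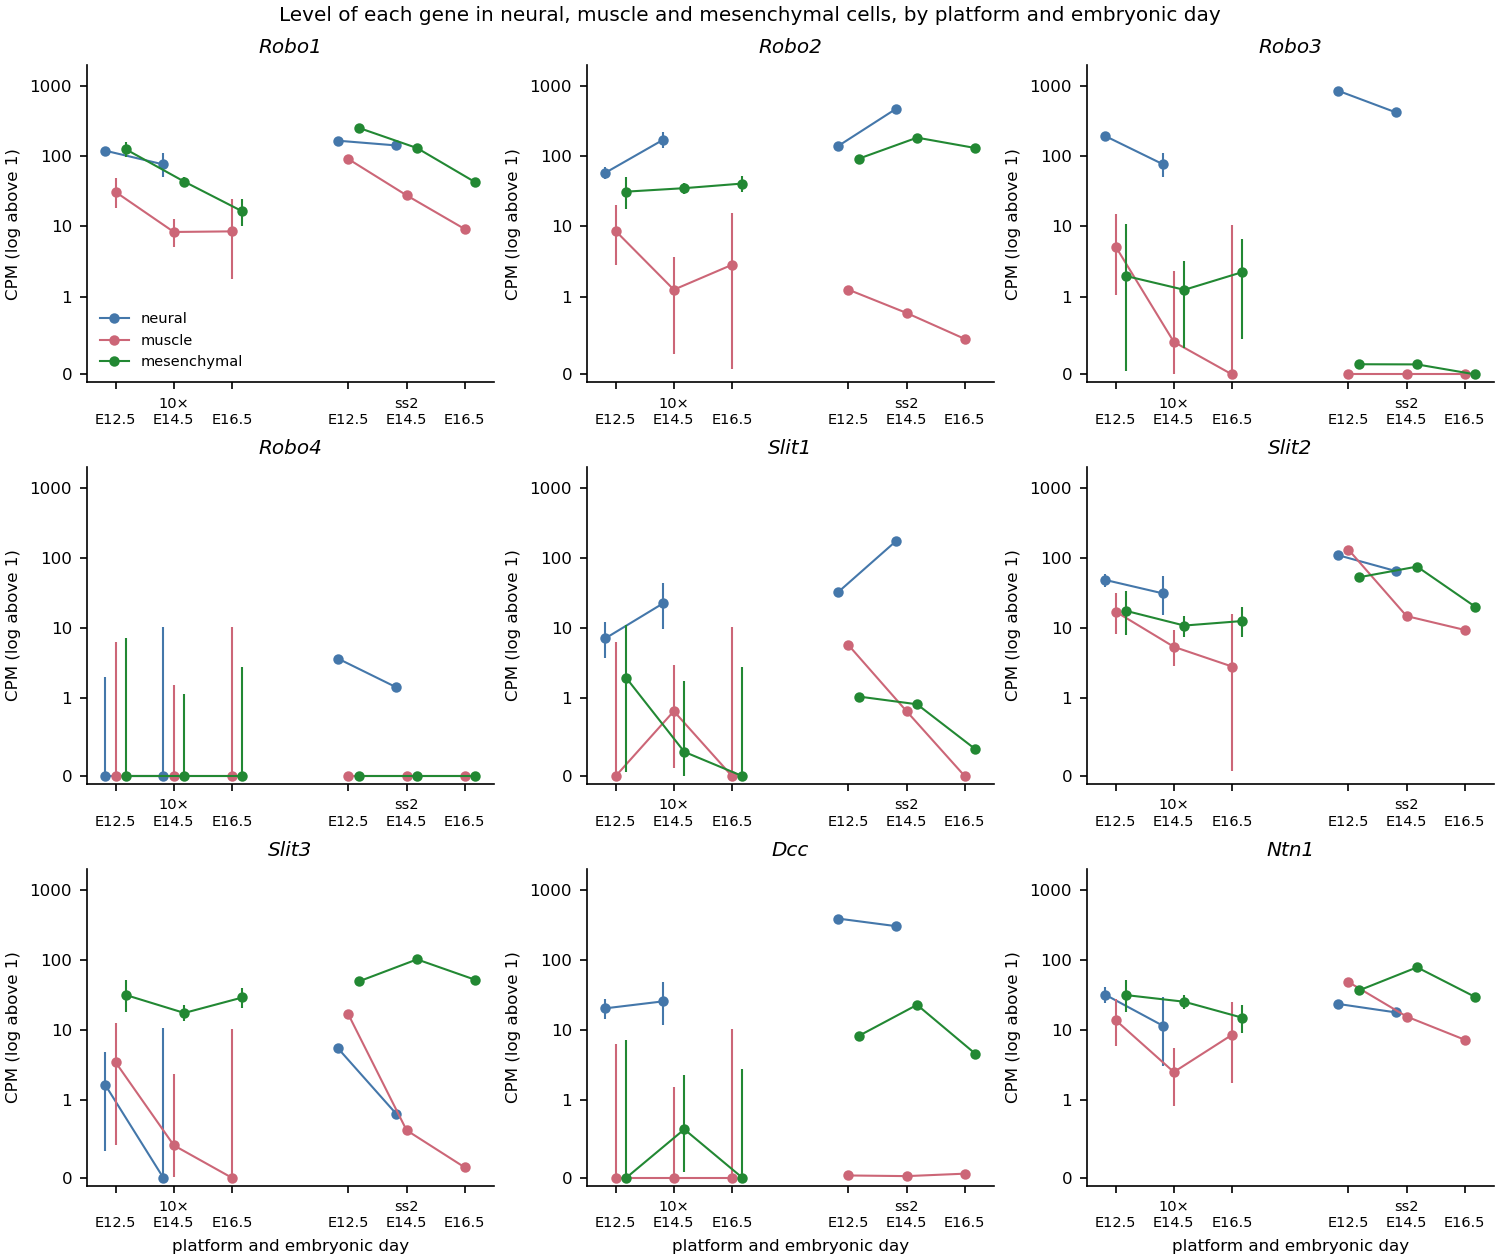
Level of each gene in neural, muscle and mesenchymal cells by embryonic day, in CPM of the class sum, on an axis that is logarithmic above 1 and linear below it. Each point is 1 pool with at least 20 cells of the class, bars on the 10× points are exact Poisson 95% intervals and lines join days of 1 platform. *Robo3*, *Slit1* and *Dcc* stand highest in neural cells at both days measured there and *Slit3* in mesenchymal cells.

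*Robo3* divided the classes most sharply among the 9 genes, by fitted fold change and by the ratio of 10× UMIs. Neural cells had 195.5 and 76.8 CPM on 10× at E12.5 and E14.5 and 867.3 and 423.7 CPM on ss2. Mesenchymal cells had 1.96, 1.25 and 2.24 CPM on 10× over the 3 days and 0.131, 0.128 and 0 CPM on ss2, and muscle cells 5.17, 0.417 and 0 CPM on 10× and 0 in all 3 ss2 pools. The lowest neural level thus lay above the highest level in any other class on each platform. In the 10× libraries 97% of the *Robo3* UMIs were in neural cells, which made up 22.5% of the cells, and the level was 110.9-fold that of mesenchymal cells (exact 95% interval 55.7 to 258.7, counting error only, which overlaps that of *Dcc* below). The difference was called against mesenchymal cells (adjusted p = 0.000303) and against muscle cells (adjusted p = 0.000147).

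Within the neural cells *Robo3* was higher in neuron-like cells than in dividing progenitors. Neuron-like cells had 234.7 and 100.4 CPM on 10× at E12.5 and E14.5 and 1927 and 472.5 CPM on ss2, whereas progenitor-like cells had 28.9 and 0 CPM on 10× and 4.46 CPM in the ss2 pool with enough cells. The difference had a log2 fold change of 6.83 ± 1.32 (SE, from the F statistic; adjusted p = 0.0243; 6 sums from 3 pools), and the 10× UMIs gave a ratio of 9.28 (4.99 to 19.5). Across all genes 5.17% were called in this comparison, 4.13% higher and 1.05% lower in neuron-like cells, and the higher share of the calls moved from 79.8% to 63.2% with DESeq2. The call was lost in 3 of 13 alternatives, without the E14.5 10× library (adjusted p = 0.0859), with guidance genes kept in the clustering (0.0739) and at a coarser clustering (0.0628), and the log2 fold change ranged from 3.26, without the ss2 pool, to 12.7. At E12.5, 44.6% of neuron-like cells on 10× held a *Robo3* UMI (39.4 to 49.8%, exact 95% binomial interval; the median depth was 3387 UMIs), beside 0.263% of mesenchymal cells over the 3 libraries (4 of 1522; median 2315.5 UMIs), a class in which few or no cells should make it. Thinned to 1000 UMIs per cell the shares were 19.6% and 0.141%. On ss2 62.5% of neuron-like cells at E12.5 and 32.2% at E14.5 had a *Robo3* count, and 60.3% and 30.6% after thinning to 100000 counts.

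The neuron-like cells were themselves unequal in *Robo3*. In the cluster led by *Lhx1*, *Npy*, *Tfap2b*, *Gbx2* and *Pax2*, genes of dorsal interneurons, the ss2 cells had 1472 CPM and 43.5% of the 10× cells held a UMI. In the cluster led by *Prrxl1*, *Slc17a6* and *Lmx1b*, genes of glutamatergic dorsal horn neurons, the ss2 level was 129.2 CPM. In the small cluster led by *Lamp5*, *Neurod6*, *Pnoc* and *Gad2* it was 1115 CPM. *Robo2* ran the other way between the first and the second of these clusters, with 291.8 and 678.8 CPM.

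*Dcc*, the netrin receptor, was also highest in neural cells and was present in progenitors as well as in neurons. Neural cells had 20.3 and 25.6 CPM on 10× at E12.5 and E14.5 and 388.6 and 302.6 CPM on ss2. Mesenchymal cells had 0, 0.624 and 0 CPM on 10× and 8.23, 22.8 and 4.58 CPM on ss2, and muscle cells 0 in every 10× library and at most 0.0536 CPM on ss2. No mesenchymal or muscle pool overlapped with a neural pool of the same platform. The neural level was called higher than the mesenchymal level (log2 fold change 4.65 ± 0.47, adjusted p = 4.99e-05), and in 10× it was 53.3-fold higher (from 46 and 2 UMIs, with an exact 95% interval that began at 13.9). Against muscle, with 0 UMIs, the neural level was at least 23.4-fold higher, taking 3 UMIs over the 3 libraries as the floor, and the fitted test called it (adjusted p = 2.91e-06). The lower level in muscle than in mesenchymal cells was called (adjusted p = 1.56e-05) but rested on ss2, and with the 10× pools alone its adjusted p was 0.454.

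Between neuron-like and progenitor-like cells *Dcc* had 19 and 26 CPM on 10× at E12.5, 18.6 and 48.4 CPM at E14.5, and 603.8 and 213.3 CPM on ss2 at E12.5. The platforms thus differed in which class was higher, and the log2 fold change was 0.51 ± 0.53 (adjusted p = 0.643). It was called higher in neuron-like cells when doublets were removed (1.79, adjusted p = 0.0434), when all cells were kept (2.35, adjusted p = 0.0157) and at a coarser clustering (2.19, adjusted p = 0.0365). The cause of these changes was not tested. A *Dcc* count was found in 79.4% of neural ss2 cells at E12.5 and 55.6% at E14.5, against 14.2%, 26% and 6.18% of mesenchymal cells over the 3 days and 2.56% of all muscle cells.

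The ss2 neuron-like cells with a *Robo3* count could be set beside those without one, as a description of cells that share pools and plates and with no test. The 79 cells with *Robo3*, 41.1% of the class on ss2, summed to 797.3 CPM of *Dcc* and the other neuron-like cells to 141.2 CPM, at similar median depths of 830741 and 794490 counts. *Dcc* was higher in the cells with *Robo3* on all 6 plates that held at least 3 cells of each kind. *Robo1*, the repulsive receptor, had 266.4 and 84.3 CPM and was higher on 5 of 6 plates, and *Slit2* 173.9 and 59.7 CPM and higher on 4 of 6. *Cntn2*, which encodes the axonal adhesion molecule TAG-1 of commissural axons, had 1095 and 107.1 CPM and was higher on 6 of 6 plates.

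*Robo2* was opposite, with 247.5 CPM in cells with *Robo3* and 559.8 CPM in cells without it, lower on all 6 plates. *L1cam*, an adhesion molecule of growing axons, had 150.6 and 452.6 CPM and was likewise higher in the cells with *Robo3* on 0 of 6 plates. The contrast of *Robo2* held at each day, with 163.1 and 522.1 CPM at E12.5 and 372.1 and 594.4 CPM at E14.5. On 10×, where a missing UMI is weaker evidence that a cell lacks the transcript, *Robo2* had 64.4 CPM in the 40% of neuron-like cells with a *Robo3* UMI and 112.6 CPM in those without, and *Dcc* 24.1 and 13.7 CPM. *Pax2*, an interneuron transcription factor, had 386.4 and 138.8 CPM on ss2 and *Slc17a6*, the vesicular glutamate transporter of excitatory neurons, 123.9 and 345.1 CPM. *Elavl4*, a general neuronal gene, was found in 100% of the ss2 cells with *Robo3* and in 71.7% of those without, whereas *L1cam* and *Slc17a6* were higher in those without. Whether the cells without *Robo3* held fewer neuronal transcripts in general was not tested.

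**Figure D2:**
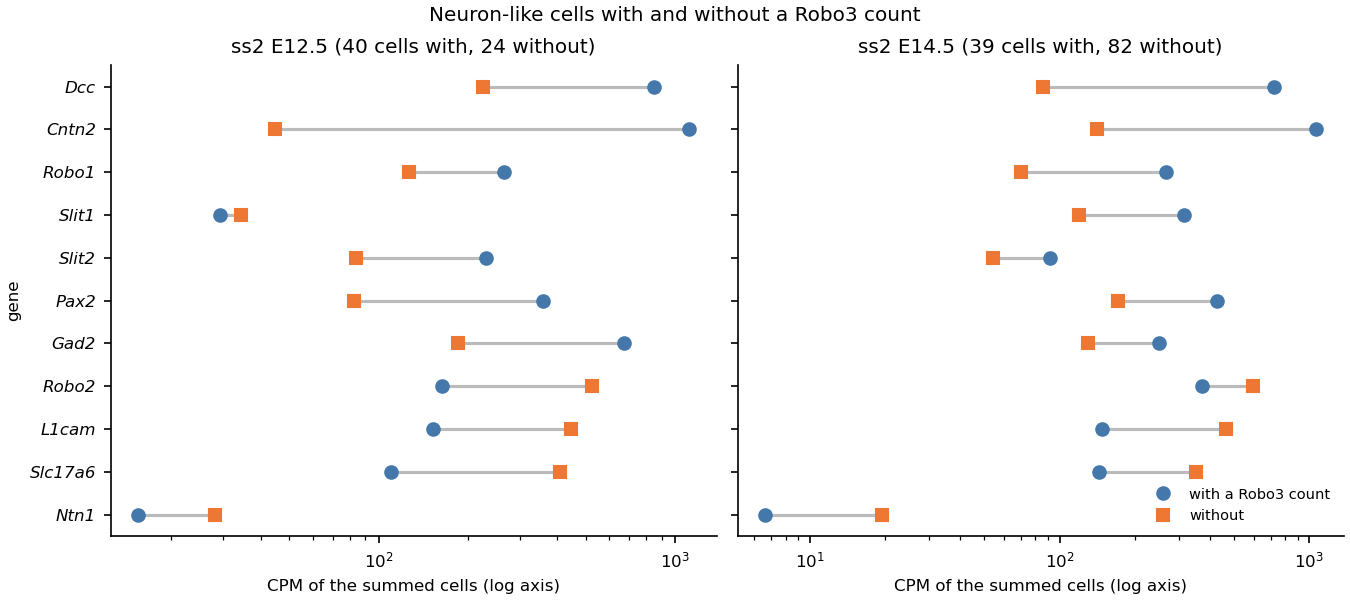
Level in CPM (logarithmic axis) of guidance and neuronal genes in ss2 neuron-like cells with and without a *Robo3* count, summed over 40 and 24 cells at E12.5 and over 39 and 82 cells at E14.5. *Dcc* and *Cntn2* lie higher and *Robo2* and *L1cam* lower in the cells with *Robo3* at both days.

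*Robo2* was high in neurons and in dermal fibroblast-like cells and nearly absent from muscle. Neural cells had 58.2 and 173.5 CPM on 10× at E12.5 and E14.5 and 140.1 and 478.6 CPM on ss2. Mesenchymal cells had 31.4, 35.2 and 41 CPM on 10× over the 3 days and 92.9, 185.3 and 131.8 CPM on ss2. Muscle cells had 8.62, 1.25 and 2.84 CPM on 10× and 1.25, 0.789 and 0.456 CPM on ss2, below every pool of the other classes. The level in muscle was lower than in mesenchymal cells (log2 fold change −6.57 ± 0.79, adjusted p = 0.00018) and lower than in neural cells (7.41 ± 0.83 for neural against muscle, adjusted p = 4.36e-05), while neural and mesenchymal cells did not differ beyond the spread between pools (0.84 ± 0.61, adjusted p = 0.328). The 10× UMIs gave ratios of 13.5 (6.93 to 29.9) for mesenchymal and 28.3 (14.54 to 62.9) for neural against muscle cells.

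Within neural cells *Robo2* was higher in neuron-like than in progenitor-like cells, at 67.1 and 20.2 CPM on 10× at E12.5, 208.3 and 60.5 CPM at E14.5, and 304.5 and 6.27 CPM on ss2 at E12.5. The log2 fold change was 3.72 ± 0.85 (adjusted p = 0.0427), and the call was lost without the E14.5 10× library (0.0829) and with guidance genes kept in the clustering (0.0729). Without the ss2 pool it was kept at a smaller fold change (1.76, adjusted p = 0.00901). *Robo2* and *Robo3* were the 2 called of the 7 genes tested between these classes. The 5 without a call, *Robo1*, *Slit1*, *Slit2*, *Dcc* and *Ntn1*, included *Slit2* at 1.15 ± 0.40 (adjusted p = 0.147) and *Robo1* at 0.08 ± 0.43 (adjusted p = 0.945).

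*Robo1* was present in all 3 classes, at its lowest in muscle. Neural cells had 120.8 and 76.8 CPM on 10× at E12.5 and E14.5 and 167.6 and 143.5 CPM on ss2. Mesenchymal cells had 125.7, 43.6 and 16.4 CPM on 10× over the 3 days and 255.3, 131.6 and 42.8 CPM on ss2, so that the neural and mesenchymal ranges overlapped. Muscle cells had 31, 8.35 and 8.52 CPM on 10× and 91.6, 27.8 and 9.19 CPM on ss2, below the mesenchymal level in every pool. Muscle was lower than mesenchymal (−1.88 ± 0.23, adjusted p = 0.000219) and lower than neural cells (1.66 ± 0.26 for neural against muscle, adjusted p = 0.000411), and neural and mesenchymal cells did not differ beyond the spread between pools (−0.21 ± 0.25, adjusted p = 0.567).

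*Robo4* had no UMI in any 10× library. On ss2 neural cells had 3.69 and 1.44 CPM at E12.5 and E14.5, and muscle and mesenchymal cells had none. Counts were found in 12 ss2 cells, 11 neuron-like and 1 progenitor-like. All 11 neuron-like cells were among the 79 with a *Robo3* count, against 0 of the neuron-like cells without. The progenitor-like cell, at 147.5 CPM of *Robo4*, came from E14.5, where the progenitor-like ss2 cells had no *Robo3* count. Each of the 12 cells had a count for 1 or 2 of the 5 endothelial markers in the ss2 table. The share of the other neural ss2 cells with such a count was not determined, so these counts do not set the 12 cells apart. The ss2 kit does not mark the strand of a read, and *Robo3* and *Robo4* end 553 bases apart on opposite strands. Whether reads of one gene were assigned to the other was not tested. The calls for *Robo4* against mesenchymal (adjusted p = 0.0316) and muscle cells (adjusted p = 0.0335) were lost without the E14.5 10× library (0.0544 and 0.0554), although *Robo4* has no count there, and with the ss2 pools alone (0.106 and 0.101).

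**Figure D3:**
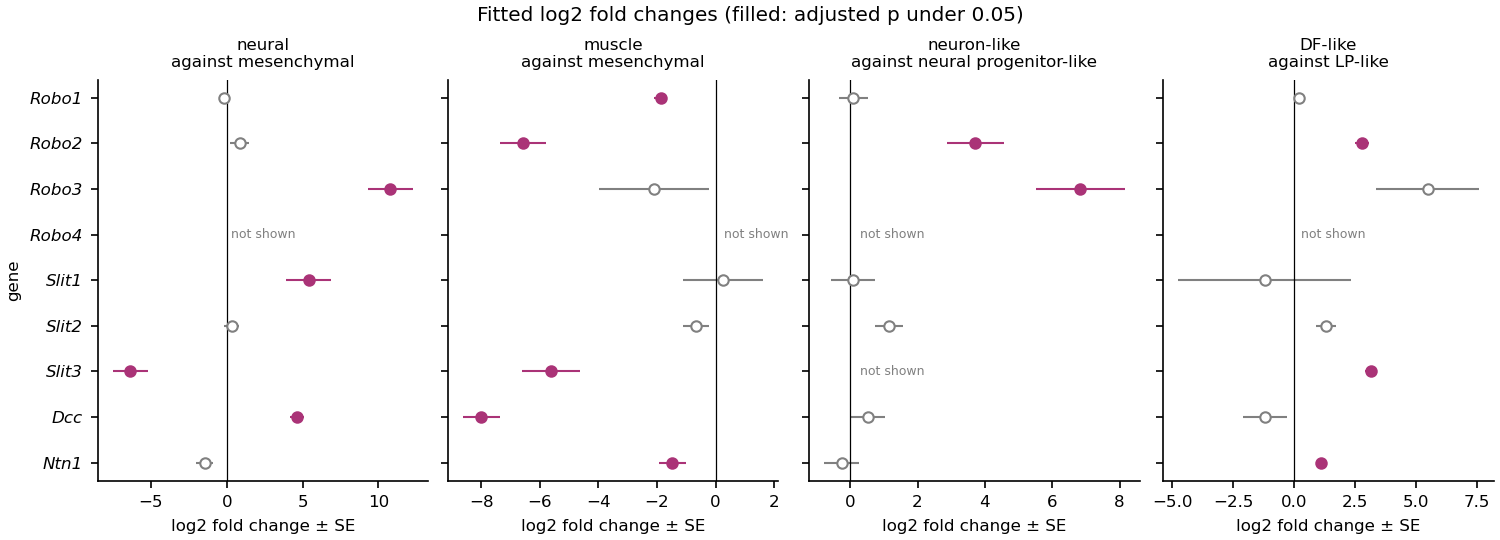
Log2 fold change with its standard error for each gene in 4 comparisons of class sums, with filled points for an adjusted p under 0.05. *Robo4* and genes that were not tested in a comparison are left out, and *Robo3*, *Dcc* and *Slit1* lie far to the right for neural against mesenchymal cells.

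Of the ligands, *Slit1* was the neural one. Neural cells had 7.14 and 22.8 CPM on 10× at E12.5 and E14.5 and 32.5 and 175.7 CPM on ss2. Muscle cells had 0, 0.835 and 0 CPM on 10× and 5.75, 0.834 and 0 CPM on ss2, and mesenchymal cells 1.96, 0.312 and 0 CPM and 1.06, 0.923 and 0.347 CPM. No pool of the other classes reached the neural level of its own platform. The log2 fold change was 5.4 ± 1.48 against mesenchymal cells (adjusted p = 0.0164) and 5.15 ± 1.26 against muscle cells (adjusted p = 0.00809). Both rested on few 10× UMIs, 21 in neural and 2 in each other class, and on the E14.5 pools: without the E14.5 ss2 pool the adjusted p was 0.174 and 0.0632, and against mesenchymal cells it was 0.0812 without the E14.5 10× library.

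*Slit2* was shared by all 3 classes. Neural cells had 48.9 and 31.3 CPM on 10× at E12.5 and E14.5 and 110.4 and 65.2 CPM on ss2. Muscle cells had 17.2, 5.43 and 2.84 CPM on 10× over the 3 days and 132.5, 14.9 and 9.44 CPM on ss2. Mesenchymal cells had 17.7, 10.9 and 12.7 CPM on 10× and 53.3, 75.8 and 20.2 CPM on ss2. The E12.5 muscle pool of ss2 was the highest of all pools, its 2 plates with enough cells lying at 127.9 and 190.7 CPM, and none of the 3 broad comparisons of *Slit2* was called. Without that pool muscle was lower than mesenchymal (−1.31, adjusted p = 0.0125) and than neural cells (1.74 for neural against muscle, adjusted p = 0.00557).

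*Slit3* was the mesenchymal ligand. Mesenchymal cells had 31.4, 17.5 and 29.1 CPM on 10× over the 3 days and 49.3, 101.6 and 51.9 CPM on ss2. Neural cells had 1.65 and 0 CPM on 10× at E12.5 and E14.5 and 5.48 and 0.824 CPM on ss2. Muscle cells had 3.45, 0.417 and 0 CPM on 10× and 16.6, 0.611 and 0.134 CPM on ss2, so mesenchymal cells were highest in each of the 6 pools. Both differences were called, for neural (−6.37 ± 1.17, adjusted p = 0.00138) and for muscle cells (−5.63 ± 0.99, adjusted p = 0.00182) against mesenchymal cells, with adjusted p of 0.0767 and 0.1 when the ss2 pools were taken alone. In 10×, 94.1% of the *Slit3* UMIs were in mesenchymal cells, which made up 52.1% of the cells, and mesenchymal cells had 24.3-fold the muscle level (8.12 to 119.8).

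*Ntn1*, the netrin ligand, was found in every class. Neural cells had 31.9 and 11.4 CPM on 10× at E12.5 and E14.5 and 23.5 and 17.8 CPM on ss2. Mesenchymal cells had 31.4, 25.2 and 14.9 CPM on 10× over the 3 days and 36.6, 78.3 and 29.5 CPM on ss2, and muscle cells 13.8, 2.5 and 8.52 CPM and 48.3, 15.5 and 7.24 CPM. Among the 3 broad comparisons, the one of muscle with mesenchymal cells was called (−1.48 ± 0.45, adjusted p = 0.0325), and it was lost without the E14.5 10× library (0.114), the E14.5 ss2 pool (0.123) or the E16.5 ss2 pool (0.104). Neural against mesenchymal cells missed the threshold (−1.47 ± 0.54, adjusted p = 0.0549). It was called under 5 alternatives, with adjusted p of 0.0334 to 0.0493.

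Between genes, levels were compared on ss2 per kb of exon over all pools. The length was that of all annotated exons of a gene together, and the length of the transcripts expressed here was not determined. The order therefore depends on the annotation. In neural cells *Slit1* and *Slit2* had 89.8 and 89.4 CPM before division by 5.92 and 25.4 kb. In neural cells *Robo3* was highest at 97.2 CPM per kb, then *Dcc* at 26.6, *Robo2* at 16.3, *Slit1* at 15.2, *Robo1* at 9.39, *Slit2* at 3.52, *Ntn1* at 3.29, *Slit3* at 0.574 and *Robo4* at 0.507 CPM per kb. *Robo3* stood apart from *Dcc* at both days, the ranges of *Dcc*, *Robo2* and *Slit1* over the E12.5 and E14.5 pools overlapped, and so did those of *Slit2* and *Ntn1*. The range of *Robo1* lay within those of *Robo2* and *Slit1*, and at E12.5 *Robo1* at 10.2 was above *Robo2* at 8.25 and *Slit1* at 5.49 CPM per kb. In mesenchymal cells the order began with *Slit3* at 11.4, *Robo2* at 8.44, *Ntn1* at 7.72 and *Robo1* at 7.09 CPM per kb, followed by *Slit2* at 1.84 and *Dcc* at 0.9 CPM per kb. The ranges of the first 4 over the days overlapped, and *Robo1* led at E12.5 with 15.5 and was the lowest of them at E16.5 with 2.59 CPM per kb. In muscle cells *Ntn1* at 2.84, *Robo1* at 1.9 and *Slit2* at 1.27 CPM per kb came first, with overlapping ranges over the days.

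Within the mesenchyme, dermal fibroblast-like cells differed from late progenitor-like cells in *Robo2*, *Slit3* and *Ntn1*, all higher in the former, that is 3 of the 8 genes tested beside 11.5% of 14218 genes (5.8% higher and 5.74% lower). *Slit3* had 44 and 77.6 CPM in DF-like cells at E14.5 and E16.5 on 10× and, on ss2, 159.5 and 185.7 CPM on the 2 plates of E14.5 with enough cells and 109.8 CPM over the plates of E16.5, against 5.86 and 7.84 CPM and 26.9 and 9.33 CPM in LP-like cells. The DF-like and LP-like pools did not overlap on either platform, the log2 fold change was 3.14 ± 0.23 (adjusted p = 4.85e-05) and the UMI ratio 8.89 (5.14 to 16.3). On ss2, 91.8% and 93.2% of DF-like cells had a *Slit3* count at E14.5 and E16.5, and 38.5% and 19.8% of LP-like cells.

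*Robo2* had 79.9 and 110.8 CPM in DF-like cells at E14.5 and E16.5 on 10× and 298.6 and 279.7 CPM on ss2, against 15.8 and 7.84 CPM and 72 and 24.3 CPM in LP-like cells. The log2 fold change was 2.8 ± 0.28 (adjusted p = 0.000313) and the UMI ratio 6.14 (4.25 to 9.07), and with the ss2 pools alone the adjusted p was 0.0508. *Ntn1* had 38.9 and 31 CPM in DF-like cells on 10× and 98.1 and 48 CPM on ss2, against 19.4 and 15.7 CPM and 59.1 and 18.1 CPM in LP-like cells. Its smaller difference (1.09 ± 0.21, adjusted p = 0.0101) was lost in several alternatives, among them the removal of doublets (0.193) and the E14.5 10× library left out (0.0529). *Robo1* was close to equal (0.22 ± 0.18, adjusted p = 0.496), at 46.1 and 24.4 CPM in DF-like and 42.8 and 28.8 CPM in LP-like cells on 10×. *Slit2* was not called (1.3 ± 0.41, adjusted p = 0.0723), its sign turned with doublets removed (−0.26) and with coarser clusters (−0.28), and it was called without the E14.5 ss2 pool (1.68, adjusted p = 0.0251).

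**Figure D4:**
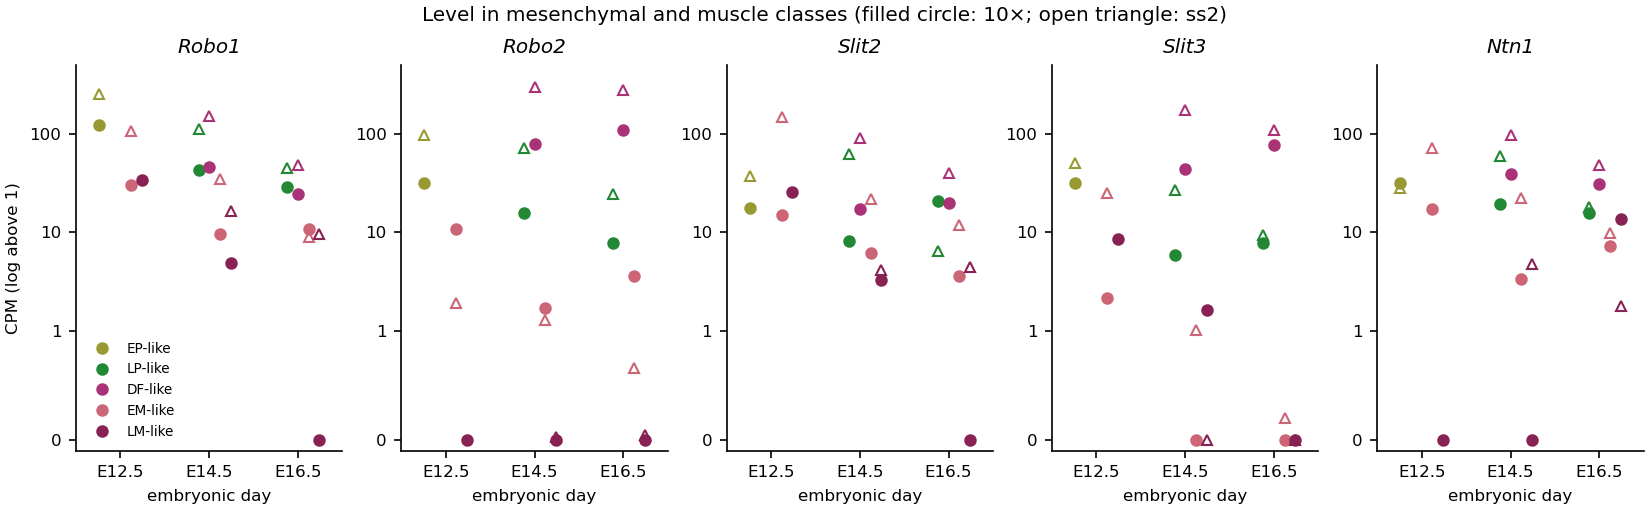
Levels in CPM of *Robo1*, *Robo2*, *Slit2*, *Slit3* and *Ntn1* in EP-like, LP-like, DF-like, EM-like and LM-like cells by day, with filled circles for 10× and open triangles for ss2 pools of at least 20 cells. *Robo2* and *Slit3* are highest in DF-like cells at E14.5 and E16.5 on both platforms.

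In the E16.5 10× library the brown adipocyte-like cells held few transcripts of these genes. *Robo1* had 0 UMIs in them and 11 in the LP-like cells of that library, *Slit2* 0 and 8, and *Ntn1* 0 and 6. *Robo2* had 2 and 3 UMIs and *Slit3* 1 and 3. With 1 library there was no test.

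In muscle, *Robo1*, *Slit2* and *Ntn1* had enough counts to be compared between LM-like cells, which express *Myog* and sarcomere genes, and the EM-like progenitors, and 0 of the 3 was called by edgeR beside 24.6% of 10171 genes (10.1% of them higher). *Ntn1* alone had an unadjusted p under 0.05, with a log2 fold change of −2.17 ± 0.84 for LM-like against EM-like cells (adjusted p = 0.0654), and DESeq2 called it (adjusted p = 0.0104). *Robo1* had −0.42 and *Slit2* −1.14 (adjusted p = 0.616 and 0.283).

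With day, trends were fitted in each kind of cell separately. In neural cells, measured at E12.5 and E14.5 in 4 sums, *Robo2* and *Slit1* rose and *Robo3* fell, 3 of 9 genes beside 5.06% of 13747 genes (2.51% rising and 2.55% falling). *Robo2* rose by 0.82 ± 0.19 log2 units per day (adjusted p = 0.000793) and *Slit1* by 1.08 ± 0.24 (adjusted p = 0.000488). *Robo3* fell by 0.609 ± 0.189 per day (adjusted p = 0.0305). A gene's own difference between platforms over this single step of days gave little of the error of this fit. The error came mostly from the spread that edgeR estimates over all genes, so these p-values do not measure how well the platforms matched for a gene. No pool could be left out. *Dcc* showed no call (−0.09 per day, adjusted p = 0.953).

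The neural cells of E14.5 held a larger part of neuron-like cells, 75.9% on 10× and 89.6% on ss2 against 68.3% and 50.8% at E12.5. Within neuron-like cells the levels moved the same way, *Robo3* from 234.7 to 100.4 CPM on 10× and from 1927 to 472.5 CPM on ss2, and *Robo2* from 67.1 to 208.3 CPM and from 304.5 to 526.7 CPM. By plate, *Robo3* in neuron-like cells lay at 980.8 and 2249 CPM on the E12.5 plates and between 238.3 and 784.4 CPM on the 4 plates of E14.5, without overlap. *Slit1* lay at 14.2 and 36.1 CPM and between 89.3 and 281.3 CPM. The part of the shift in cell makeup in the class trend was not tested.

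In muscle cells *Robo1*, *Slit2* and *Slit3* fell over the 3 days, beside 3.94% of 12984 genes (1.87% rising and 2.06% falling). *Robo1* fell by 0.691 ± 0.123 per day (adjusted p = 0.00539), with an adjusted p of 0.179 without the E12.5 and 0.0621 without the E16.5 ss2 pool. *Slit2* fell by 0.841 ± 0.141 (adjusted p = 0.00369), and its decline again rested on the E12.5 ss2 pool, without which it was −0.46 per day (adjusted p = 0.564). *Slit3* fell by 1.65 ± 0.34 (adjusted p = 0.0145), with 0.0573 and 0.0587 when the E12.5 or the E14.5 10× library was left out. *Ntn1* missed the threshold (−0.52 ± 0.17, adjusted p = 0.0992) and was called without the E16.5 10× library (0.0475) or the E14.5 ss2 pool (0.0271).

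In mesenchymal progenitors, which are EP-like at E12.5 and LP-like later so that class and day cannot be told apart, *Robo1* was called, beside 6% of 14117 genes (4.38% rising and 1.62% falling; the rising share of the calls was 73% and with DESeq2 59.7%). Its level was 125.7, 42.8 and 28.5 CPM on 10× and 255.3, 110.9 and 44.9 CPM on ss2, and it fell by 0.466 ± 0.094 per day (adjusted p = 0.0147). The call was lost without the E12.5 10× library (0.132), the E12.5 ss2 pool (0.142) or the E16.5 ss2 pool (0.0534). *Robo2* (−0.35, adjusted p = 0.11) and *Slit3* (−0.47, adjusted p = 0.0888) were not called by edgeR and were called by DESeq2 (0.0245 and 0.0233).

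Whether the step from E12.5 to E14.5 differed between the kinds of cells was tested directly in 1 fit of 12 sums over 14398 genes, in which the 3 pairwise differences called 6.47%, 4.73% and 3.79% of genes. The fit held platform within each kind of cell and no pool term, so sums from the same pool were treated as independent. *Robo2* differed between neural cells (1.64 ± 0.36 in the log2 step) and mesenchymal progenitors (−0.39 ± 0.38) by 2.03 ± 0.52 (adjusted p = 0.0114), and between neural and muscle cells (−0.89 ± 0.49) by 2.53 ± 0.60 (adjusted p = 0.00443). *Slit1* differed between neural (2.13 ± 0.61) and muscle cells (−2.26 ± 0.75) by 4.39 ± 0.98 (adjusted p = 0.00196), from few counts in muscle. The muscle level fell on ss2 but not on 10×, where it went from 0 to 2 UMIs. *Slit2* differed between muscle cells (−2.5 ± 0.48) and mesenchymal progenitors (0.02 ± 0.45) by −2.51 ± 0.65 (adjusted p = 0.0151). Its fall in muscle was steeper on ss2 than on 10×.

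The wider guidance genes were read from 3 lists named in the methods, by their counts of calls beside the share of all genes called and by the 3 largest called changes in each direction, given as log2 fold changes. A large fitted fold change of a gene with few or no counts in a class depends on the prior count of the fit and is no measured ratio.

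Of 18 partners of Slit and Robo, among them the srGAP proteins that bind the tails of Robo receptors and the heparan sulfate proteoglycans that bind Slits, 2 were higher and 2 lower in neural than in mesenchymal cells, beside 30.5% of all genes called, with a median log2 fold change of −0.0976 beside −0.158 over all genes. *Pak1*, a kinase that acts downstream of Rac (2.4 ± 0.34, adjusted p = 0.000278), and *Arhgap39* (1.5 ± 0.32) were higher, and the proteoglycan *Sdc1* (−3.15 ± 0.43, adjusted p = 0.000201) and the kinase *Abl1* (−1.45 ± 0.29) lower. Between muscle and mesenchymal cells 3 were higher and 4 lower, beside 24.1% of all genes, with *Arhgap39* (2.2), the glypican *Gpc1* (2.05) and the dystroglycan gene *Dag1* (1.15) highest and *Srgap1* (−2.1), *Flrt3* (−1.39) and *Sdc1* (−0.926) lowest. Against muscle, neural cells had 4 higher and 4 lower, beside 35.5% of all genes, namely *Srgap3* (3.53 ± 0.82), *Pak1* (3.01) and *Srgap1* (2.79 ± 0.61) at the one end and *Sdc1* (−2.22), *Gpc1* (−2.03 ± 0.38) and *Dag1* (−1.68) at the other. Neuron-like against progenitor-like cells gave 0 calls by edgeR, where *Pak1*, *Sdc3* and *Srgap1* had an unadjusted p under 0.05 (0.0118, 0.0127 and 0.00456), beside 5.17% of all genes.

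LM-like against EM-like cells had *Arhgap39* (1.92) and *Enah* (1.34) higher and *Sdc3* (−4.57) and *Sdc1* (−1.94) lower, 4 of the 18 partners beside 24.6% of all genes. DF-like against LP-like cells had *Flrt3*, which encodes a membrane protein that binds Robo1 (1.87 ± 0.27, adjusted p = 0.00217), and *Sdc1* (0.619) higher and *Pak1* (−1.19), *Sdc3* (−1.03) and *Gpc1* (−0.964) lower, 5 of 18 beside 11.5% of all genes. With day, *Sdc3* (0.91 per day) and *Srgap2* (0.715) rose in neural cells, beside 5.06% of all genes called. In muscle *Dag1* rose (0.541) and *Srgap3* (−1.45) and *Flrt3* (−0.602) fell, beside 3.94%, and in mesenchymal progenitors *Flrt3* fell (−0.704), beside 6%.

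Of 21 genes of the netrin system 19 were tested across the broad classes. In neural against mesenchymal cells 5 were higher and 3 lower, beside 30.5% of all genes. The higher ones were led by *Draxin*, a secreted repellent that binds Dcc (6.9 ± 0.69, adjusted p = 3.26e-05), the adhesion molecule *Dscaml1* (6.6 ± 1.74, adjusted p = 0.0135) and *Nell2*, a ligand of Robo3 (3.87 ± 0.65, adjusted p = 0.000984). *Dock1*, a Rac activator that acts downstream of Dcc (−4.2 ± 0.57, adjusted p = 0.000198), *Neo1*, the receptor closest to Dcc (−1.14 ± 0.31, adjusted p = 0.0133), and *Trio* (−0.84) were lower. Muscle against mesenchymal cells gave 2 higher, *Draxin* (4.52) and *Unc5a* (2.23), and 5 lower, with *Unc5b* (−4.13), *Ntng1* (−4.03) and *Unc5d* (−3.26) lowest, beside 24.1% of all genes. Neural against muscle cells gave 8 higher, with *Dscam* (6.53), *Ntng1* (5.3) and *Nell2* (5.03) highest, and *Ntn5* (−9.72) and *Dock1* (−3.75) lower, beside 35.5%.

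Neuron-like against progenitor-like cells had *Ntng1* (5.77) and *Rgmb* (2.7) higher, 2 of 11 beside 5.17% of all genes. LM-like against EM-like cells had *Rgmb* higher (1.22) and 4 of 13 lower, with *Nell2* (−7.04), *Ntn5* (−2.56) and *Rgma* (−1.16) lowest, beside 24.6%. The netrin receptors *Unc5b* and *Unc5c* parted between the mesenchymal classes, *Unc5b* higher (4.09 ± 0.85, adjusted p = 0.0137) and *Unc5c* lower (−2.65 ± 0.66, adjusted p = 0.0356) in DF-like than in LP-like cells, where *Rgma* (0.822) and *Rgmb* (0.799) were also higher and *Neo1* (−0.818) lower, 5 of 18 beside 11.5%. With day, *Nell1* (4.22 per day), *Dscaml1* (1.03) and *Unc5c* (0.845) rose in neural cells, 3 of 18 beside 5.06% of all genes. *Rgma* fell in muscle cells (−0.522), 1 of 17 beside 3.94%. In mesenchymal progenitors 0 of 19 were called by edgeR, 5 of them at an unadjusted p under 0.05, beside 6%.

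Of 31 other genes of commissural guidance, 11 were higher and 6 lower in neural than in mesenchymal cells, beside 30.5% of all genes. *Atoh1*, a transcription factor of dorsal neural progenitors (10.7 ± 2.05, adjusted p = 0.019), *Cntn2* (7.44 ± 0.98, adjusted p = 0.00016) and the atypical cadherin *Celsr3* (7.32 ± 1.22, adjusted p = 0.00095) were highest. The semaphorins *Sema3d* (−7.13 ± 1.91, adjusted p = 0.013), *Sema3c* (−3.59 ± 0.76, adjusted p = 0.00346) and *Sema3a* (−3.32 ± 0.31, adjusted p = 2.27e-05), which repel axons, were lowest. In muscle against mesenchymal cells *Plxna2* alone was higher (2.89) and 13 were lower, with the semaphorin receptors *Nrp1* (−5.54 ± 0.52, adjusted p = 3.9e-05), *Nrp2* (−5.5) and *Plxna4* (−4.53) lowest, beside 24.1%. In neural against muscle cells 18 were higher, with *Atoh1* (10.5), *Celsr3* (10.2) and *Cntn2* (8.35) highest, and 4 lower, with *Sema3a* (−2.75), *Cdon* (−2.44) and *Sema3c* (−2.31) lowest, beside 35.5%, and the median was 3.4 beside −0.0329 over all genes.

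In neuron-like cells 7 of 26 were higher than in progenitor-like cells and 0 lower, beside 5.17% of all genes, with *L1cam* (7.54 ± 1.36, adjusted p = 0.0185), *Plxna4* (5.32 ± 0.84, adjusted p = 0.0115) and *Nrp1* (3.85 ± 0.71, adjusted p = 0.0199) highest. In LM-like against EM-like cells 3 of 14 were higher, *Sema3b* (2.93), *Plxna1* (2.85) and *Plxna2* (0.649), and 4 lower, with *Sema3a* (−3.04), *Boc* (−2.3) and *Cdon* (−1.19) lowest, beside 24.6%. In DF-like against LP-like cells 7 of 28 were higher, with *Plxna4* (5.96 ± 0.44, adjusted p = 4.85e-05), *Nrcam* (4.36) and *Sema3d* (2.04) highest, and *Ephb1* (−6.69) and *Sema3c* (−2.89) lower, beside 11.5%. With day in neural cells *Nrp1* (1.36 ± 0.21 per day, adjusted p = 3.57e-08) and *Efnb3* (0.836) rose and 6 fell, with the transcription factors of dorsal commissural neurons *Lhx9* (−3.64 ± 0.46, adjusted p = 2.13e-12), *Barhl2* (−2.22) and *Lhx2* (−2.09) lowest, 8 of 31 beside 5.06% of all genes. In muscle *Sema3d* (−1.68) and *Vangl2* (−0.48) fell, 2 of 25 beside 3.94%. In mesenchymal progenitors *Sema3c* (0.941) and *Nrp1* (0.798) rose and *Efnb3* (−0.773), *Vangl2* (−0.552) and *Nrp2* (−0.402) fell, 5 of 28 beside 6%.

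Over 30 class sums and 11105 genes with enough counts, the genes whose log2 level ran most like each of the 9 were found by Pearson's r. It is given as a description, since the sums share libraries and come from both platforms, whose differences in level can add to r. *Robo1* and *Slit2* were each other's nearest, at r = 0.92, with *St8sia2* equally close to *Slit2*. *Robo3* was closest to *Pax2* (0.95), *Slc17a6* and *Slc6a5* (both 0.94), although *Slc17a6* was higher in the ss2 neuron-like cells with *Robo3* on 0 of 6 plates. *Dcc* was closest to *Acsl6* (0.93), *Robo2* to *Brinp1* and *Lsamp* (both 0.91) and *Slit1* to *Nap1l2* and *Pak7* (both 0.91). *Slit3* was closest to *Pdgfra* (0.88), the receptor that marks the mesenchymal cells, and *Ntn1* to *Wnt5a* (0.86). *Robo4* was too low to be ranked.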

How the data were processed

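YFP+ cells were profiled on 10× and by Smart-seq2 (ss2), and 18 bulk libraries were made from sorted cells. The authors aligned 10× reads with Cell Ranger to the mouse genome (mm10 in the submitters' processing notes) and deposited UMI counts per gene and cell. They quantified ss2 reads with kallisto 0.44.0, and the deposited ss2 values are expected counts, which were rounded after summing. The deposited bulk values are counts, and 16 of the 18 bulk columns could not be matched to a sample by name and were not used.

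The members and gene lists were chosen with earlier results of these data known. Cells with over 8% mitochondrial counts were left out (64 of 3916), and 3852 cells were integrated with Seurat 5.3.0 (2000 variable genes, 30 components, resolution 0.8) after 77 guidance genes had been left out, giving 16 clusters. Doublets were called with Scrublet (8, 10 and 8 cells per 10× library) and kept in the main analysis. Clusters were named from marker lists (score above 0, at least 3 markers found in 5% of 10× or 20% of ss2 cells), a naming rule chosen after the clusters were seen. Depth per cell is given with the results. As cells are not replicates, the counts of all cells of each class were added up within each of 6 pools (at least 20 cells) and tested with edgeR 4.0.16 (quasi-likelihood, TMM, filterByExpr, Benjamini-Hochberg, threshold 0.05; R 4.3.3), with the pool as a block or, for day trends, platform as a term. A pool held several embryos. The p-values rest on the spread between pools as edgeR moderates it over all genes, most strongly in fits of few sums. Standard errors are the log2 fold change over the root of F. Count ratios have conditional exact and shares exact binomial 95% intervals, which cover counting error only. Alternatives were DESeq2 1.42.0, other scaling, no filter, other clusterings and pools left out. The test of differences between day changes was added after seeing the data and held platform within each kind of cell and no pool term. The scripts were tested on simulated data.

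Genes named are the 9 members and, for each list and comparison, the 3 largest called changes in each direction. The Slit and Robo partners were Srgap1, Srgap2, Srgap3, Nck1, Nck2, Pak1, Abl1, Abl2, Enah, Sos1, Arhgap39, Usp33, Myo9b, Gpc1, Sdc1, Sdc3, Dag1 and Flrt3. The netrin system held other netrins and netrin-G genes, Unc5 receptors, Neo1, Dscam, Dscaml1, Draxin, Rgma, Rgmb, Trio, Dock1, Ptk2, Fyn, Nell1 and Nell2, and the commissural list held adhesion molecules, semaphorins and their receptors, Eph, Shh and Wnt pathway receptors and transcription factors of dorsal neurons.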

Additional observations from a re-analysis of the deposited data

Results flagged for a closer look

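The change from E12.5 to E14.5 differed between kinds of cells for 3 of the 9 genes when the difference itself was tested in edgeR, in a fit without a pool term. Of all 14398 genes tested, 6.47% were called between neural and muscle cells. The shares were 4.73% between neural cells and mesenchymal progenitors and 3.79% between muscle cells and mesenchymal progenitors. For *Robo2* the difference was 2.03 on the log2 scale between neural cells and mesenchymal progenitors (adjusted p = 0.0114) and 2.53 between neural and muscle cells (adjusted p = 0.00443). For *Slit1* it was 4.39 between neural and muscle cells (adjusted p = 0.00196), and for *Slit2* −2.51 between muscle cells and mesenchymal progenitors (adjusted p = 0.0151). *Slit1* had few counts in muscle, which went from 0 to 2 UMIs on 10× and from 5.75 to 0.834 CPM on ss2. *Slit2* in muscle fell from 132.5 to 14.9 CPM on ss2 and less steeply on 10×. No pool was left out in this fit.

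The comparisons used no bulk library. The 2 bulk columns that matched a sample by name were E16.5 Pdgfra−/Cd36+ sorted cells, technical duplicates of 24862787 and 32947290 counts, with no control library beside them. Levels above the limit that a count of 0 allows (3 counts, 0.121 CPM in the first library) were found in both for *Robo1* (3.22 and 1.94 CPM), *Robo2* (0.603 and 1.76 CPM), *Robo4* (2.25 and 0.91 CPM), *Slit1* (0.603 and 0.759 CPM), *Slit2* (3.62 and 2.12 CPM), *Slit3* (15.2 and 12.6 CPM) and *Ntn1* (1.97 and 1.24 CPM). *Robo3* had 1 and 0 counts and *Dcc* 1 and 9. *Robo4*, which had no UMI on 10×, was present in these libraries beside endothelial transcripts (*Pecam1* 79.1 and 104.8 CPM, *Cldn5* 9.01 and 6.13 CPM, *Tie1* 3.74 and 2 CPM), whose part in its level was not tested. These cells were also sorted for the YFP lineage label, and the purity of that sort was not tested here. The adipocyte genes *Fabp4* (4576 and 3935 CPM) and *Adipoq* (1668 and 1228 CPM) were far higher. In such sorted bulk cells, fewer cells of a type and less RNA per cell cannot be told apart.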

How the results depend on the processing

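The 28 calls for the 9 genes in the class comparisons and day trends include those of *Robo4*, whose direction was fixed in advance. Of these calls, 12 held in every alternative run for them and none reversed, and 90.2% of 420 alternatives kept the call while 41 lost it. Of the alternatives for the 39 differences without a call 90.8% left them so, 23 gave a call and 26 turned the sign. Depth limits the 10× values: thinning moved 42.2% of the shares of cells on 10× and 14.3% on ss2 out of their intervals. The cause of each change below was not tested, beyond the fewer sums in fits of part of the pools.

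Calls are given as percent of the genes tested. With 10× pools alone, 27.1% were called for neural against mesenchymal, 17.3% for muscle against mesenchymal, 27.4% for neural against muscle, 8.69% for neuron-like against progenitor-like, 9.92% for DF-like against LP-like, 20.4% for LM-like against EM-like, 2.21% for the mesenchymal progenitor and 1.66% for the muscle day trend. With ss2 pools alone 9.99%, 3.08% and 13.6% were called for the broad comparisons, 1.85% for DF-like against LP-like, 8.51% for LM-like against EM-like, 0.316% for the muscle trend and 0 for the mesenchymal progenitor trend (edgeR, 1987 genes at an unadjusted p under 0.05). DESeq2 called 13.8% for the mesenchymal progenitor, 8.13% for the muscle and 3.63% for the neural day trend and 9.74% for neuron-like against progenitor-like cells. That comparison gave 8.37% with doublets removed, 6.89% with all deposited cells, 6.5% with each platform clustered alone, 3.15% with guidance genes kept and 7.53% without a filter, and the mesenchymal progenitor trend 3.52% with platforms alone.

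Leaving out 1 pool at a time gave 20.5% to 35.9% for neural against mesenchymal, 14% to 31.7% for muscle against mesenchymal, 24.9% to 40.7% for neural against muscle, 1.72% (without the E14.5 10× library) to 9.03% for neuron-like against progenitor-like, 6.64% (without the E14.5 10× library) to 17% for DF-like against LP-like and 14.4% to 22.1% for LM-like against EM-like cells. The range was 0.584% (without the E12.5 10× library) to 16% (without the E14.5 ss2 pool) for the mesenchymal progenitor trend and 1.22% (without the E12.5 ss2 pool) to 10.3% (without the E14.5 ss2 pool) for the muscle trend.

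Signs turned for differences without a call on either side, given in log2 units. *Ntn1* in neural against muscle cells had −0.0137 with doublets removed, −0.0243 with all cells, −0.545 with ss2 alone and −0.298 to 0.627 when 1 pool was left out. *Slit1* in muscle against mesenchymal cells had −1 with platforms clustered alone, −0.794 with guidance genes kept and −1.59 to 1.59 when 1 pool was left out. *Slit2* had −0.26 (doublets removed) and −0.28 (resolution 0.4) in DF-like against LP-like cells and −0.0366 (ss2 alone) in neural against mesenchymal cells. *Robo1* had 0.0874 (10× alone) and −0.297 to 0.0357 (1 pool left out) in neural against mesenchymal cells, and −0.303 (10× alone), −0.0496 (guidance genes kept) and −0.303 to 0.559 (1 pool left out) in neuron-like against progenitor-like cells, where it was called under 3 other alternatives (1.33 to 1.41). *Slit1* had 0.969 with platforms clustered alone in the mesenchymal progenitor trend. With 1 pool left out the other ranges across 0 were −0.291 to 0.316 for *Slit1* in neuron-like cells, −0.565 to 0.138 for *Slit2*, −0.299 to 0.558 for *Dcc* and −0.349 to 0.00611 for *Ntn1* in the mesenchymal progenitor trend, −1.2 to 0.215 for *Dcc* in DF-like against LP-like cells and −1.24 to 0.576 for *Slit3* in neural against muscle cells.

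The neural day trend could not lose a pool, neuron-like against progenitor-like cells could not be tested on ss2 alone, the tests of differences between day changes had no alternative run, and the bulk comparisons and their alternatives were not run. No paired analysis was possible because the bulk columns carry no usable group and replicate number, and the single-cell fits already held the pool as a block.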
